A study of Homo sapiens with 16 samples.

Results

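The genes described here are 36 human genes of glycolysis and of the response to low oxygen: 17 enzymes of glycolysis and its regulation, and 19 other targets of the hypoxia-inducible factors. They were chosen by symbol, as every probe of the Illumina bead array whose platform annotation names one of them. Of the 36 genes, 35 had a probe, 53 probes in all. CA9 had no named probe, so its expression is not analysed here. Probes detected on at least 2 of the 16 arrays were kept, 40 of the 53, which left 33 genes among the 9654 items tested across the array. BNIP3L was detected on 1 array and PDK1 on 0 arrays, so neither was tested. All 17 glycolytic enzymes and 16 of the 19 other targets were therefore tested, each through its brightest kept probe.

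Glycolysis breaks glucose down to pyruvate, and lactate dehydrogenase turns pyruvate into lactate. When oxygen is short, the alpha subunits of the hypoxia-inducible factors are no longer hydroxylated by the EGLN enzymes and so escape breakdown through VHL. They pair with ARNT and switch on genes of glucose uptake and glycolysis, of blood vessel growth, of pH control, of collagen hydroxylation and of their own feedback control.

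All samples were T47D-MTVL cells, a luminal breast cancer line with an integrated luciferase reporter under the MMTV promoter. The K26 and WT lines overexpressed HA-tagged linker histone H1.4, in its K26A form and its wild-type form, and were grown without treatment. The sh225, sh120 and Ctrl lines carried a KRAB-Tet repressor with a red fluorescent protein, and a hairpin switched on by doxycycline (Dox), aimed at several H1 variants in sh225, at H1.4 in sh120 and at no target (a random sequence) in Ctrl. They were sorted on both fluorescent markers and compared with and without 2.5 µg/mL Dox for 6 days, being passaged on day 3 and kept without serum after day 4. The sources used here do not say whether serum was also withdrawn from the arms without Dox. The groups sh225_Dox, sh120_Dox and Ctrl_Dox are the lines with Dox. Each of the 8 groups had 2 arrays, and nothing in the labels says that these came from separate cultures. The p-values therefore rest on array-to-array spread, which may be technical. Each form of H1.4 and each hairpin was carried by a single line, so other differences between lines cannot be told apart from the histone form or the hairpin. No group was labelled as grown in low oxygen.

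Values are log2 signals after background correction and quantile normalization, and n is 2 arrays in every group. Changes are log2 fold changes ± SE from limma, adjusted by Benjamini-Hochberg over all 9654 items. A gene is said to be higher, lower or called only at an adjusted p under 0.05. Replicate arrays correlated at 0.989 to 0.994 across items, and 9477 to 10286 probes were detected per array. The probe of H1-4, the gene of H1.4, read 7.80 and 7.57 in K26 and 8.00 and 8.03 in WT. It was not detected on any of the 12 arrays of the hairpin lines (4.46 to 4.64), so depletion of its transcript could not be checked here. Of 10 luminal markers, 9 or 10 were detected on both arrays of each group. None of the 2 basal and 4 endothelial markers with a probe was detected on both arrays of any group, while of the fibroblast and leukocyte markers COL1A1 and CD68 were. The array labels run through 1 to 8 in 2 sets, the Ctrl and sh120 arrays in the first and the sh225, WT and K26 arrays in the second. Raw medians were 78.0 to 89.8 in the first set and 97.7 to 105.4 in the second. Comparisons of WT or K26 with Ctrl cross these sets and those of K26 with WT and of Dox within a line do not.

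Hypoxia-inducible factors can bind DNA at elements with the core ACGTG. The promoters of the members were searched for these letters alone, on both strands (CACGT on the other). Other forms of the core were not searched for. The windows, from RefSeq on GRCh38.p14, run from 250 bases before the annotated start to 50 after it. The core was found in 20 of 32 members with a promoter (62.5%), against 24.9% of 27305 genes in the whole table. It was found in 11 of 17 glycolytic genes (64.7%) and in 9 of 15 other targets (60%). Per promoter the shares were 23 of 49 for the members and 21.4% of 35116 for the table, since some genes have several starts. The palindrome CACGTG counts on both strands. A match is a run of letters, not a bound site, and its absence says only that these letters are not in the window. BNIP3L, HILPDA, NDRG1 and VEGFA have no entry.

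The 6 promoters printed belong to genes whose changes the results turn on. ALDOC, GPI and PGK1 are glycolytic genes that were lower in K26 than in WT, and ERO1A and ANGPTL4 were higher in both overexpression lines than in Ctrl. ADM was higher with Dox in every hairpin line. Matches to ACGTG on either strand are in capitals: 3 in ALDOC, 1 in GPI, 3 in PGK1, 1 in ERO1A, 1 in ANGPTL4 and 0 in ADM. The windows lie at chr17:28576846-28577145 on the minus strand for ALDOC, chr19:34364742-34365041 on the plus strand for GPI, chrX:78103998-78104297 on the plus strand for PGK1, chr14:52695509-52695808 on the minus strand for ERO1A, chr19:8363905-8364204 on the plus strand for ANGPTL4 and chr11:10304823-10305122 on the plus strand for ADM.
ALDOC: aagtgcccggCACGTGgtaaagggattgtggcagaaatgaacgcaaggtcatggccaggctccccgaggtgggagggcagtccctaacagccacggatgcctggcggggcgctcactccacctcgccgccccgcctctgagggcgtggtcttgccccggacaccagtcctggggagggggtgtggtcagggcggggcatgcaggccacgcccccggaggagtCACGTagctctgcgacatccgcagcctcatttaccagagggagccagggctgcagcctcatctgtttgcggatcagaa
GPI: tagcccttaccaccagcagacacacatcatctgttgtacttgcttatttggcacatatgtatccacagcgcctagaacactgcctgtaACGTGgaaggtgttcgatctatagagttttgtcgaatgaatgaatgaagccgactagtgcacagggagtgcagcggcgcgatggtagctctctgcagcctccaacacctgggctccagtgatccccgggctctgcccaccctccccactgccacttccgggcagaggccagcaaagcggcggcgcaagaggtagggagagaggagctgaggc
PGK1: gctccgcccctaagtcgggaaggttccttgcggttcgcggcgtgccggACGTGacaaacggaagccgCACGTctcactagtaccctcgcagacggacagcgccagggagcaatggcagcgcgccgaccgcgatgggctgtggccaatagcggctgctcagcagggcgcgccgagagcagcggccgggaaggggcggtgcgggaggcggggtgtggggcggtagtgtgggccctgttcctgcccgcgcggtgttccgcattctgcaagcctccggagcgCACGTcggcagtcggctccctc
ERO1A: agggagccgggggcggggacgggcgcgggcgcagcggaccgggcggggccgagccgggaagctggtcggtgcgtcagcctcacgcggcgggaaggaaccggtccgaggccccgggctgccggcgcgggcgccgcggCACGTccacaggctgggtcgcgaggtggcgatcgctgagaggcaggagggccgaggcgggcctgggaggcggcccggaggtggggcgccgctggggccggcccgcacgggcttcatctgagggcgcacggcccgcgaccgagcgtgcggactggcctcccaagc
ANGPTL4: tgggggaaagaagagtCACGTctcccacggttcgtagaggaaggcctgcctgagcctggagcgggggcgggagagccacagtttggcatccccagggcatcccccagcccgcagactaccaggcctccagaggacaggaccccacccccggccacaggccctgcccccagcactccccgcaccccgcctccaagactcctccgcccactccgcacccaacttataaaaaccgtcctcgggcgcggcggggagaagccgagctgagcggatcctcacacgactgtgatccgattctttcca
ADM: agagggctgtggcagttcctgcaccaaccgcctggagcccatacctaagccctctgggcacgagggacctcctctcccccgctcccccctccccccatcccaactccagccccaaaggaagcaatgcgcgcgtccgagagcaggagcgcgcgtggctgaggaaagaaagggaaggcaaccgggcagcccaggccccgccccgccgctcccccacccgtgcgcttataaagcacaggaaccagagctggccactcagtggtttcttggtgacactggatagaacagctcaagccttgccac

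**Figure D1:**
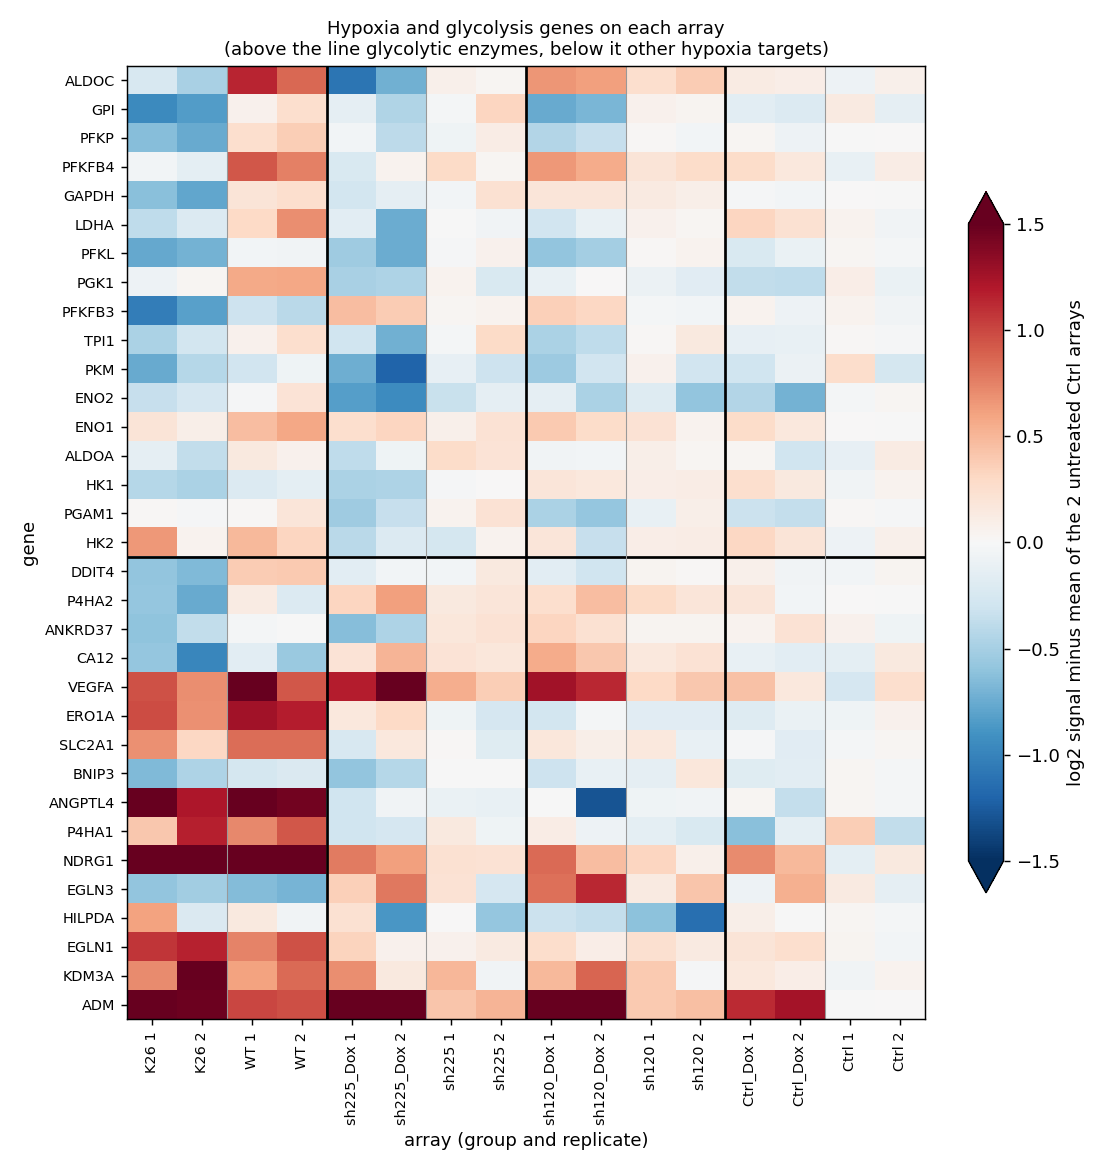
Colour gives the log2 signal of each of the 33 tested genes (rows) on each of the 16 arrays (columns) minus the mean of that gene on the 2 untreated Ctrl arrays, cut at -1.5 and 1.5; K26 stands left of WT and each line with Dox left of the same line without. Most glycolytic enzymes are blue in K26 and in sh225_Dox, while NDRG1, ANGPTL4, ERO1A and EGLN1 are red in both K26 and WT.

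Centring each gene on its mean over the 16 arrays and taking the median of each set places every array by its glycolytic enzymes and its other targets. The glycolytic median was -0.35 and -0.33 on the K26 arrays, against 0.24 and 0.35 on the WT arrays. It was -0.34 and -0.28 in sh225_Dox, against 0.06 and 0.12 in sh225. The K26 and sh225_Dox arrays were the lowest of the 16 on this measure and the WT arrays the highest. The median of the other targets was 0.29 and 0.06 in K26 and 0.36 and 0.30 in WT, and these were the highest 4 arrays. The K26 arrays thus stood low on glycolytic enzymes, and the WT arrays high on both sets. On the other targets K26 replicate 1 stood high, whereas K26 replicate 2 was close to the next array, sh225 replicate 1, at 0.03.

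**Figure D2:**
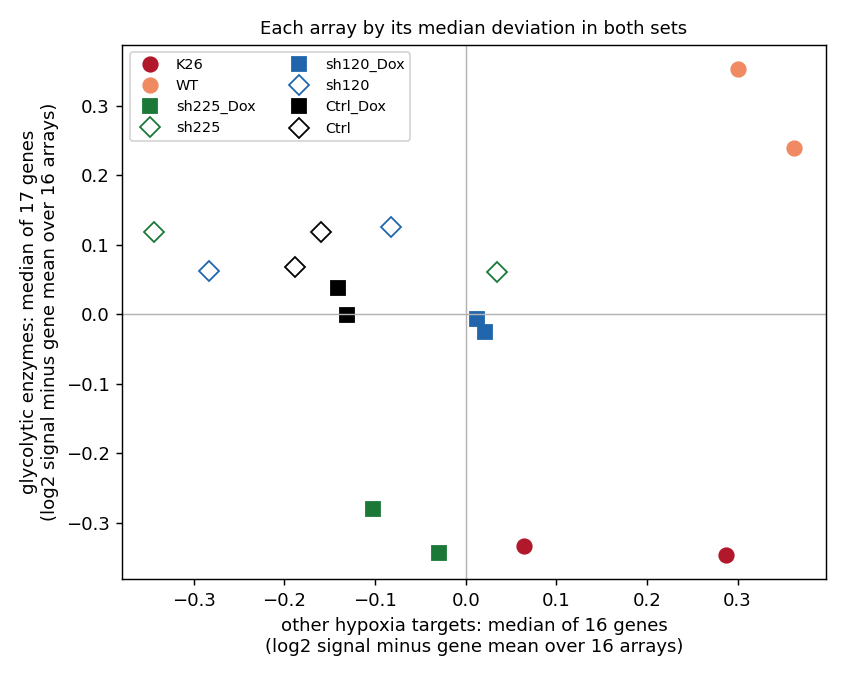
Each point is 1 array, with the median deviation of 16 other hypoxia targets on the x axis and of 17 glycolytic enzymes on the y axis, both as log2 signal minus the mean of each gene over 16 arrays. K26 arrays lie lower right, at -0.35 and -0.33 on the y axis, and WT arrays upper right, at 0.24 and 0.35.

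The comparison of K26 with WT asks what differs between cells overexpressing the mutant and the wild-type histone. Most of the 17 glycolytic enzymes, which were chosen with earlier results of these data known, were lower in K26. Of them 13 were called lower and 0 higher, and all 17 estimates lay below 0, with a median of -0.56. On a separate list of further glycolysis genes, 10 of them tested, 2 were called higher and 0 lower, with a median of 0.06. Of the 16 other targets, 5 were called lower and 1 higher, with a median of -0.26 (-0.11 in the authors' series matrix and -0.13 without WT replicate 1). Of all 9654 items 22.9% were called, 12.8% lower and 10.1% higher, with a median of -0.01. The enzymes called lower included lactate dehydrogenase (LDHA) and the hexokinase HK1, whose call was lost without any 1 of the K26 or WT arrays. PGAM1, ENO2, PKM and HK2 were not called. The only member higher in K26 was ADM, the vasodilator peptide adrenomedullin. Of the glycolytic probes 11 of 17 had a mean log2 signal of at least 10, against 3 of 16 for the other targets. Among all items at least that bright, 17% were called lower, against 11.8% of dimmer ones. Groups did not overlap for 33.6% of all items in the lower direction and 30.5% in the higher.

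The upper steps of glycolysis rearrange and phosphorylate the sugar. GPI, which turns glucose 6-phosphate into fructose 6-phosphate, read 8.81 and 8.93 on the K26 arrays, against 9.83 and 10.03 on the WT arrays. Both K26 arrays lay below both WT arrays, a change of -1.06 ± 0.14 (adjusted p = 3.99e-05). PFKP, the platelet form of phosphofructokinase, read 10.11 and 9.99 in K26, against 11 and 11.12 in WT. PFKL, the liver form, read 8.55 and 8.61 in K26, against 9.27 and 9.27 in WT. For both forms the K26 arrays were the lower pair, with no overlap. The change was -1.01 ± 0.12 for PFKP (adjusted p = 1.04e-05) and -0.69 ± 0.11 for PFKL (adjusted p = 0.000285). PFKFB3 and PFKFB4 make and degrade fructose 2,6-bisphosphate, the activator of phosphofructokinase. PFKFB4 read 8.71 and 8.59 in K26, against 9.67 and 9.49 in WT, and PFKFB3 read 11.08 and 11.30 in K26, against 11.80 and 11.71 in WT. Neither gene had an overlap between the groups. PFKFB4 was lower by the larger amount, at -0.94 ± 0.13 (adjusted p = 8.93e-05). For PFKFB3 the change was -0.56 ± 0.09 (adjusted p = 0.000367).

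The sugar is then split and oxidised. ALDOC, the brain-type aldolase, read 10.77 and 10.53 in K26, against 12.16 and 11.88 in WT. The groups were more than 1 log2 unit apart at their closest arrays. Its change of -1.37 ± 0.13 (adjusted p = 9.76e-07) was the largest of the 33 members. ALDOA, the muscle-type aldolase and the other one measured, was also lower, at -0.35 ± 0.12 (adjusted p = 0.0372). TPI1, which interconverts the products of aldolase, read 11.37 and 11.57 in K26, against 11.92 and 12.10 in WT. GAPDH, which oxidises glyceraldehyde 3-phosphate, read 11.56 and 11.40 in K26, against 12.37 and 12.43 in WT. PGK1, which makes ATP in the next step, read 9.41 and 9.52 in K26, against 10.07 and 10.08 in WT. The K26 arrays were below the WT arrays for all of these genes. The changes were -0.54 ± 0.13 for TPI1 (adjusted p = 0.00588), -0.92 ± 0.10 for GAPDH (adjusted p = 3.8e-06) and -0.61 ± 0.12 for PGK1 (adjusted p = 0.00126). LDHA, the lactate dehydrogenase subunit that hypoxia induces, read 12.55 and 12.73 in K26, against 13.23 and 13.62 in WT. The WT arrays were both higher but stood apart from each other, and the change was -0.79 ± 0.14 (adjusted p = 0.000864). ENO1 and HK1 were lower too, at -0.38 ± 0.09 and -0.27 ± 0.08. PKM, ENO2, PGAM1 and HK2 were not called, with estimates from -0.41 for PKM to -0.05 for HK2.

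Among the other targets the lower genes were of several kinds. DDIT4, an inhibitor of mTORC1 signalling that stress induces, read 9.78 and 9.72 in K26, against 10.76 and 10.77 in WT. Replicates lay within 0.1 of each other, and the change was -1.02 ± 0.10 (adjusted p = 3.15e-06). P4HA2, a catalytic subunit of the collagen prolyl hydroxylase, read 7.93 and 7.76 in K26, against 8.64 and 8.31 in WT. Its change was -0.63 ± 0.14 (adjusted p = 0.00399), but the probe's row is among those interchanged between the deposited tables. The authors' series matrix gives -0.09 for P4HA2 unless rows are aligned (adjusted p = 0.307), and which table pairs the row with the right probe could not be settled. The change was called with rows aligned, and both interchanged rows are of P4HA2 probes. The HK1 row is interchanged in the same way, with that of another HK1 probe, and HK1 was at 0.04 in the series matrix for K26 against WT. P4HA1, the other subunit measured, differed by -0.05 ± 0.24 (adjusted p = 0.913). ANKRD37, CA12, a membrane carbonic anhydrase, and BNIP3, a mitochondrial receptor for autophagy, were lower, at -0.47 ± 0.13, -0.43 ± 0.14 and -0.32 ± 0.11. ADM was higher by 0.51 ± 0.10 (adjusted p = 0.00165). The remaining 10 other targets were not called, with estimates from -0.39 for VEGFA to 0.37 for KDM3A. Leaving out 1 array at a time lowered the number of called glycolytic enzymes and other targets, and fewer of all items were called too. TPI1 lost its call without WT replicate 2 (adjusted p = 0.0667) or K26 replicate 1 (0.0662), and P4HA2 without WT replicate 1 (0.0795) or K26 replicate 2 (0.0565). HK1, BNIP3, ANKRD37, ALDOA, ENO1 and CA12 also lost theirs without 1 or more single arrays (adjusted p up to 0.151, 0.281, 0.14, 0.307, 0.0674 and 0.371).

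**Figure D3:**
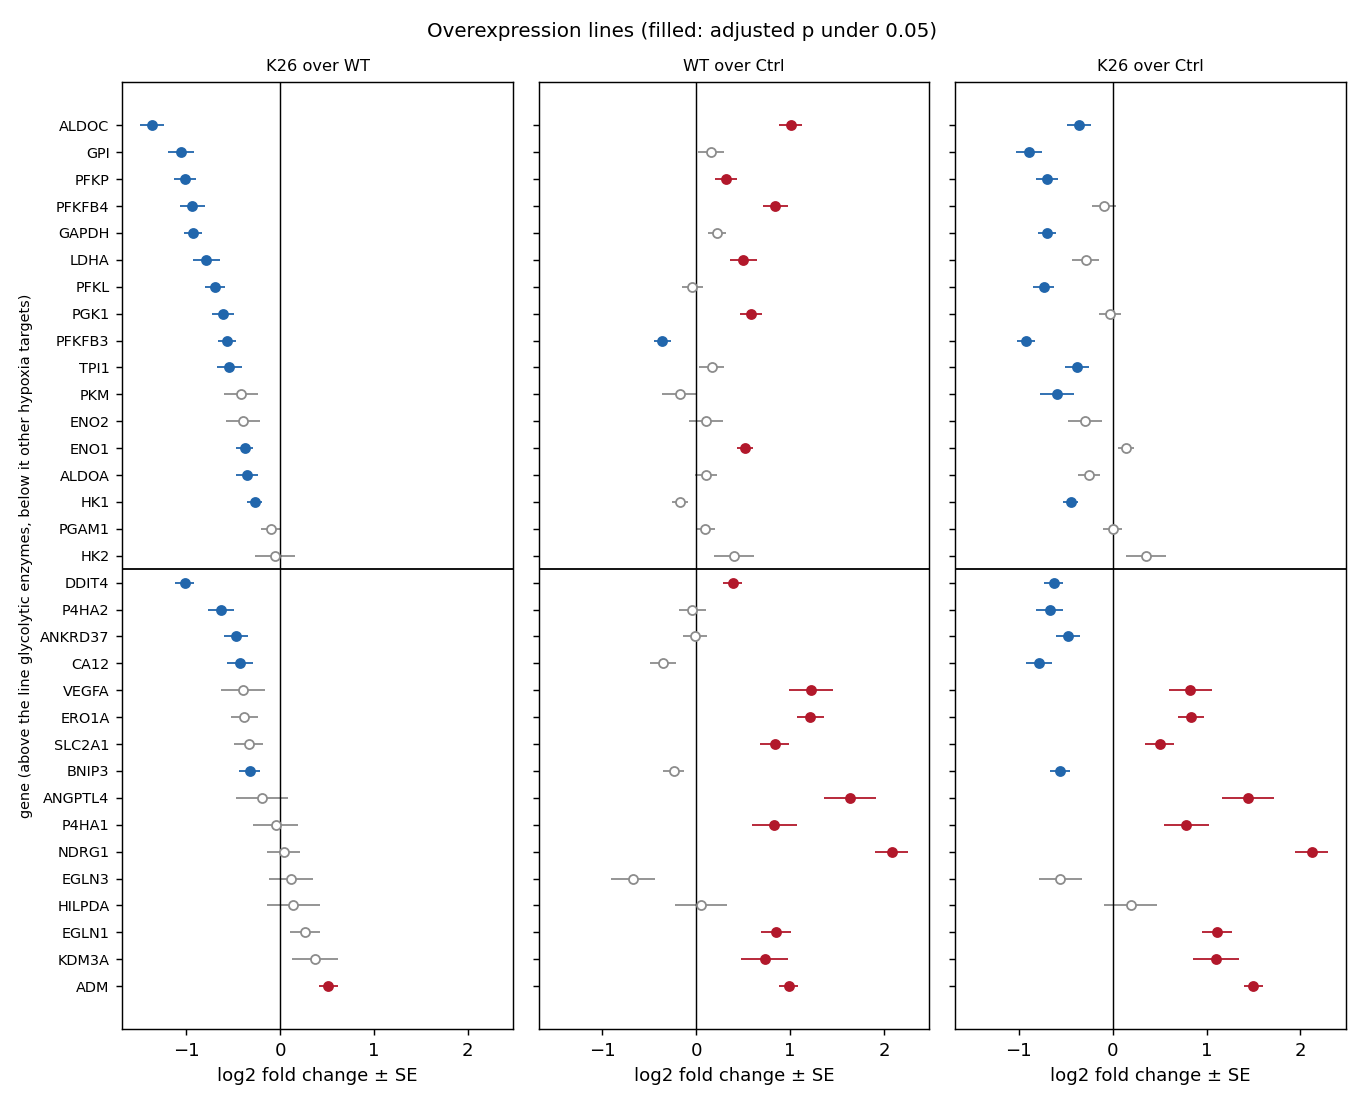
Points are log2 fold changes of the 33 genes, bars are SE, and filled points passed an adjusted p of 0.05, red for higher and blue for lower; EGLN3, undetected in K26, WT and Ctrl, is drawn as an open grey point. The left panel (K26 over WT) has all 17 glycolytic estimates below 0, while the panels against Ctrl have NDRG1 at 2.08 for WT and 2.12 for K26.

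The comparison of WT with Ctrl asks what differs between cells overexpressing H1.4 and cells with a random hairpin and no Dox. Other hypoxia targets were higher in WT: 10 of 16 were called higher, with a median of 0.78. That median was 0.48 without background correction and 0.35 in the authors' series matrix. Of the 17 glycolytic enzymes 6 were called higher and 1 lower, with a median of 0.16. Of all items 31.8% were called, 16.3% higher and 15.5% lower, with a median near 0, and groups did not overlap for 31.9% higher and 32.7% lower. The only other target called lower was EGLN3, which was detected on none of these 4 arrays, so no fold is given. This comparison shares the WT arrays with that of K26 and WT, so their values are not independent.

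NDRG1, a gene that hypoxia and other stress induce, read 8.32 and 8.06 on the WT arrays, against 5.96 and 6.26 on the Ctrl arrays. ANGPTL4, a secreted inhibitor of lipoprotein lipase, read 8.60 and 8.23 in WT, against 6.81 and 6.74 in Ctrl. For both genes all WT arrays lay more than 1 log2 unit above all Ctrl arrays. The change was 2.08 ± 0.17 for NDRG1 (adjusted p = 4.32e-08) and 1.64 ± 0.28 for ANGPTL4 (adjusted p = 0.000187). VEGFA, the main growth factor of blood vessels, read 8.24 and 7.67 in WT, against 6.49 and 6.99 in Ctrl. ERO1A, the oxidase that renews disulfide formation in the endoplasmic reticulum, read 8.73 and 8.65 in WT, against 7.41 and 7.55 in Ctrl. Both were higher without overlap, VEGFA with wider spread between replicates. The change was 1.22 ± 0.23 for VEGFA (adjusted p = 0.000582) and 1.22 ± 0.14 for ERO1A (adjusted p = 3.47e-06). ADM read 9.76 and 9.74 in WT, against 8.76 and 8.78 in Ctrl, and ALDOC read 12.16 and 11.88 in WT, against 10.94 and 11.09 in Ctrl. Both again stood apart without overlap. The change was 0.98 ± 0.10 for ADM (adjusted p = 8.3e-07) and 1.00 ± 0.13 for ALDOC (adjusted p = 7.5e-06). In the authors' series matrix NDRG1 was at 1.09, VEGFA at 0.68 and EGLN1 at 0.34, all called higher. The Ctrl signals of NDRG1 were close to the lowest detected signals of those arrays, 5.92 and 5.89.

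The other genes higher in WT were the glucose transporter SLC2A1, the oxygen sensor EGLN1, P4HA1, the histone demethylase KDM3A and DDIT4, by 0.39 for DDIT4 to 0.85 for EGLN1. Among glycolytic enzymes PFKFB4, PGK1, ENO1, LDHA and PFKP were higher, by 0.31 for PFKP to 0.84 for PFKFB4. PFKFB3 was lower, at -0.36 ± 0.09 (adjusted p = 0.00624). With median scaling in place of quantile normalization the median of all items moved to 0.13 and that of the glycolytic enzymes to 0.42. Then 11 glycolytic enzymes and 10 other targets were called higher, 0 and 1 lower, and PFKFB3 was no longer called (-0.04). The calls over all items moved as well, to 2562 higher and 925 lower, against 1570 and 1499 with quantile normalization. Set against the untreated sh225 line, whose arrays are in the same numbering set as those of WT, 9 of 16 other targets were called higher and 2 lower. Their median was 0.51, and 5 glycolytic enzymes were higher and 1 lower. In that comparison 3467 of all 9654 items were called, 1758 higher and 1709 lower. Leaving out single arrays removed the calls of KDM3A and PFKP in every case and of LDHA, P4HA1, PFKFB3 and DDIT4 in some. Fewer members were called in each such fit, and so were fewer of all items.

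Between K26 and Ctrl the medians of the glycolytic enzymes and of the other targets lay on opposite sides of 0, though the other targets were split. Of 17 glycolytic enzymes 9 were lower and 0 higher, with a median of -0.36, whereas 9 of 16 other targets were higher and 5 lower, with a median of 0.64 (0.40 in the authors' series matrix). Of all items 51.4% were called, 24.2% higher and 27.2% lower, so that a call was common here, and groups did not overlap for 35.5% higher and 39.8% lower. This comparison shares Ctrl with the comparison of WT and Ctrl and K26 with that of K26 and WT.

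NDRG1 read 8.33 and 8.12 on the K26 arrays, against 5.96 and 6.26 on the Ctrl arrays. ANGPTL4 read 8.46 and 7.98 in K26, against 6.81 and 6.74 in Ctrl. ADM read 10.29 and 10.24 in K26, against 8.76 and 8.78 in Ctrl. The K26 arrays were higher by over 1 log2 unit throughout, with no overlap. The change was 2.12 ± 0.17 for NDRG1 (adjusted p = 1.28e-08), 1.45 ± 0.28 for ANGPTL4 (adjusted p = 0.000247) and 1.5 ± 0.10 for ADM (adjusted p = 1.3e-09). EGLN1, the prolyl hydroxylase that marks the alpha subunits for breakdown, read 7.08 and 7.16 in K26, against 6.05 and 5.96 in Ctrl. KDM3A, which removes methyl groups from lysine 9 of histone H3, read 6.70 and 7.48 in K26, against 5.94 and 6.05 in Ctrl. EGLN1 had close replicates and KDM3A had K26 arrays far apart, though both above Ctrl. The change was 1.11 ± 0.16 for EGLN1 (adjusted p = 1.05e-05) and 1.10 ± 0.25 for KDM3A (adjusted p = 0.00111). PFKFB3 read 11.08 and 11.30 in K26, against 12.17 and 12.07 in Ctrl. It was the most reduced member, at -0.93 ± 0.09 (adjusted p = 1.95e-07). In the series matrix NDRG1 was at 1.11 and EGLN1 at 0.47, both called higher. The Ctrl signals of NDRG1, EGLN1 and KDM3A were close to the lowest detected signals of those arrays, 5.92 and 5.89.

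The other glycolytic enzymes lower in K26 than in Ctrl were GPI, PFKL, GAPDH, PFKP, PKM, HK1, TPI1 and ALDOC, at -0.90 for GPI to -0.36 for ALDOC. LDHA, PFKFB4 and PGK1, lower in K26 than in WT, differed from Ctrl by -0.29 ± 0.14, -0.09 ± 0.13 and -0.03 ± 0.12 and were not called. The other targets that were higher also included ERO1A, VEGFA, P4HA1 and SLC2A1, by 0.50 for SLC2A1 to 0.83 for ERO1A. CA12, P4HA2, DDIT4, BNIP3 and ANKRD37 were lower, at -0.78 for CA12 to -0.48 for ANKRD37. P4HA2 was at -0.11 in the series matrix with rows not aligned, and not called (adjusted p = 0.119). With median scaling 5 glycolytic enzymes were called lower and 2 higher, and the split over all members was 11 higher and 10 lower, against 9 higher and 14 lower with quantile normalization. Over all items the split moved too, to 2927 higher and 2001 lower, against 2335 and 2627, and the median from -0.03 to 0.09. The glycolytic median was then -0.10, and ALDOC, TPI1, PKM, HK1 and BNIP3 were not called. PKM, TPI1, ALDOC, VEGFA, P4HA1, SLC2A1 and ANKRD37 lost their calls without 1 or more single arrays (adjusted p up to 0.206, 0.166, 0.214, 0.0969, 0.221, 0.165 and 0.0705).

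**Figure D4:**
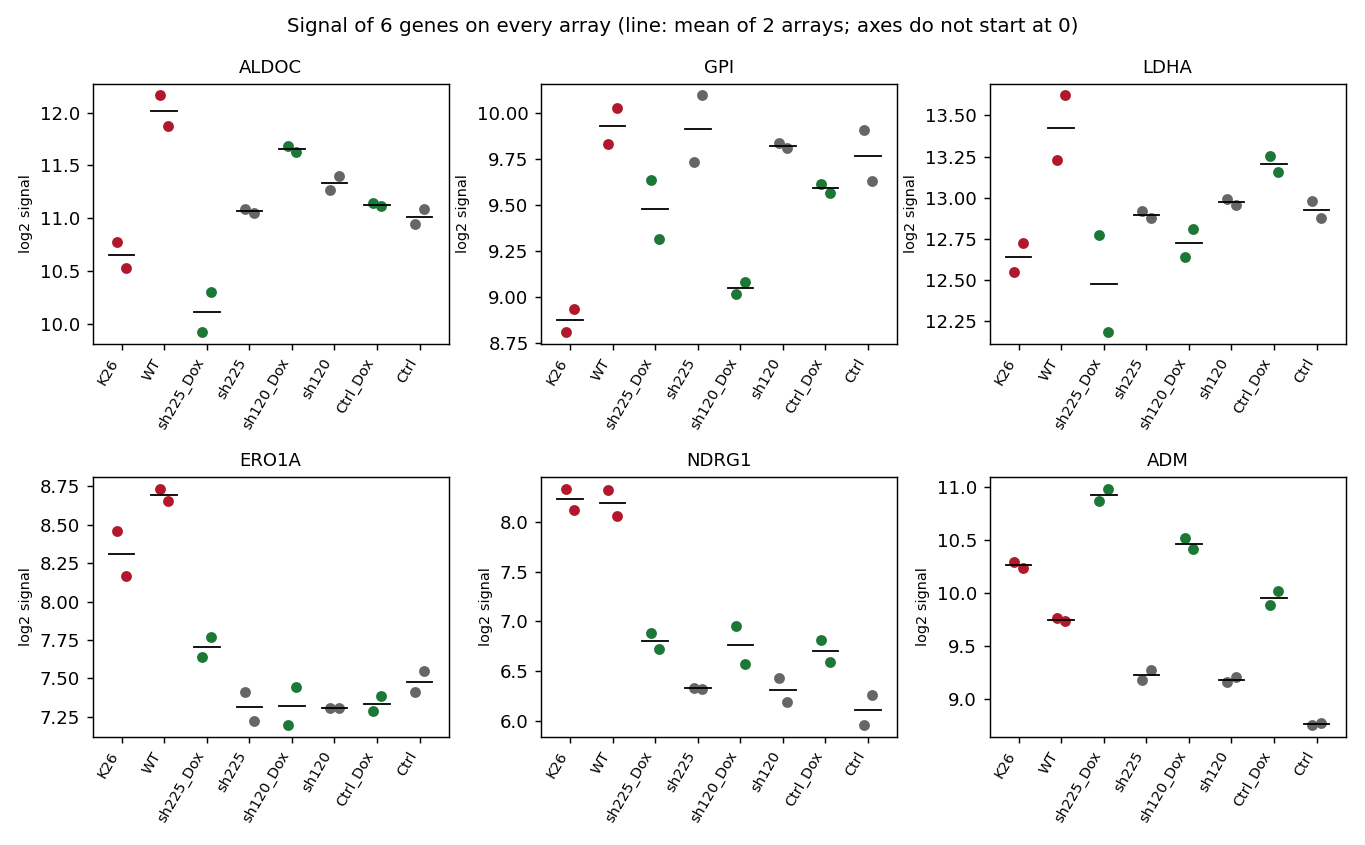
Log2 signal of ALDOC, GPI, LDHA, ERO1A, NDRG1 and ADM on each array (points, n = 2 per group) with the group mean (line). ALDOC and GPI are lower in K26 than in WT and NDRG1 is above Ctrl in both, while ADM is higher with Dox in all 3 hairpin lines.

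The comparison of sh225_Dox with sh225 asks what 6 days of Dox, which switches on the hairpin aimed at several H1 variants, change in these genes. Most of the 17 glycolytic enzymes were lower with Dox: 12 were called lower and 1 higher, with a median of -0.44. Of 10 tested further glycolysis genes 0 were called, with a median of 0.07. Of the 16 other targets 4 were higher and 2 lower, with a median of 0.13. Of all items 35.6% were called, 18.5% lower and 17.1% higher, with a median of 0.03, and groups did not overlap for 31.7% lower and 34.5% higher. Items with a mean log2 signal of at least 10 were called lower in 22.3% of cases and dimmer ones in 17.6%.

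ADM read 10.87 and 10.98 with Dox, against 9.18 and 9.28 without. VEGFA read 7.92 and 8.75 with Dox, against 7.28 and 7.10 without. ADM had close replicates, whereas the Dox arrays of VEGFA stood far apart, both above the untreated arrays. The change was 1.69 ± 0.10 for ADM (adjusted p = 3.54e-10) and 1.14 ± 0.23 for VEGFA (adjusted p = 0.000787). ALDOC read 9.92 and 10.30 with Dox, against 11.09 and 11.05 without. PFKL read 8.78 and 8.57 with Dox, against 9.29 and 9.38 without. PKM, pyruvate kinase of most tissues, read 9.97 and 9.50 with Dox, against 10.57 and 10.39 without. In each case the Dox arrays were the lower pair. The change was -0.95 ± 0.13 for ALDOC (adjusted p = 8.09e-06), -0.66 ± 0.11 for PFKL (adjusted p = 0.00014) and -0.75 ± 0.18 for PKM (adjusted p = 0.0034). ANKRD37, a small ankyrin repeat protein, read 7.48 and 7.66 with Dox, against 8.28 and 8.34 without. It was lower without overlap, at -0.74 ± 0.13 (adjusted p = 0.000181).

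The other enzymes lower with Dox were TPI1, PGAM1, ALDOA, HK1, GPI, LDHA, PGK1 and GAPDH, at -0.64 for TPI1 to -0.30 for GAPDH, and ENO2. ENO2, the neuronal enolase, was detected on both untreated arrays and not well above background with Dox, so it was at least 1.33-fold lower, the bright group's mean set against the lowest detected signal (adjusted p = 0.00895). PFKFB3 was the 1 enzyme higher, by 0.39 ± 0.09 (adjusted p = 0.00329). NDRG1 and ERO1A were higher by 0.48 ± 0.17 and 0.39 ± 0.14, and BNIP3 was lower, at -0.50 ± 0.11. Without sh225 replicate 2 or sh225_Dox replicate 2 fewer members were called, and so were fewer of all items. PKM lost its call without sh225_Dox replicate 2 (-0.51). NDRG1 lost its call without any 1 array, and GPI, LDHA, GAPDH, ENO2, PGK1, ALDOA and ERO1A without some (adjusted p up to 0.262, 0.534, 0.269, 0.0873, 0.188, 0.0756 and 0.243). With median scaling the split of members was 7 higher and 11 lower, against 5 and 14 with quantile normalization. The median of all items then moved to 0.12 and their split to 2318 higher and 1355 lower, against 1650 and 1782.

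The comparisons of K26 with WT and of sh225_Dox with sh225 share no array. The glycolytic enzymes lower in both were ALDOA, ALDOC, GPI, PGK1, LDHA, HK1, PFKL, TPI1 and GAPDH. These 9 were 69.2% of the 13 lower in K26 and 75.0% of the 12 lower with Dox in sh225. Among these 9 only ALDOC and PFKL kept the call in both comparisons under every alternative analysis. Over all items 570 were lower in both, 46.2% of the 1235 lower in K26 and 32.0% of the 1782 lower with Dox. BNIP3 and ANKRD37 were the other members lower in both, and ADM was the 1 member higher in both. PFKFB3 was lower in K26 and higher with Dox. PFKP, PFKFB4, ENO1, DDIT4, P4HA2 and CA12 were called lower in K26 and not called with Dox in sh225, but no test compared these effects.

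**Figure D5:**
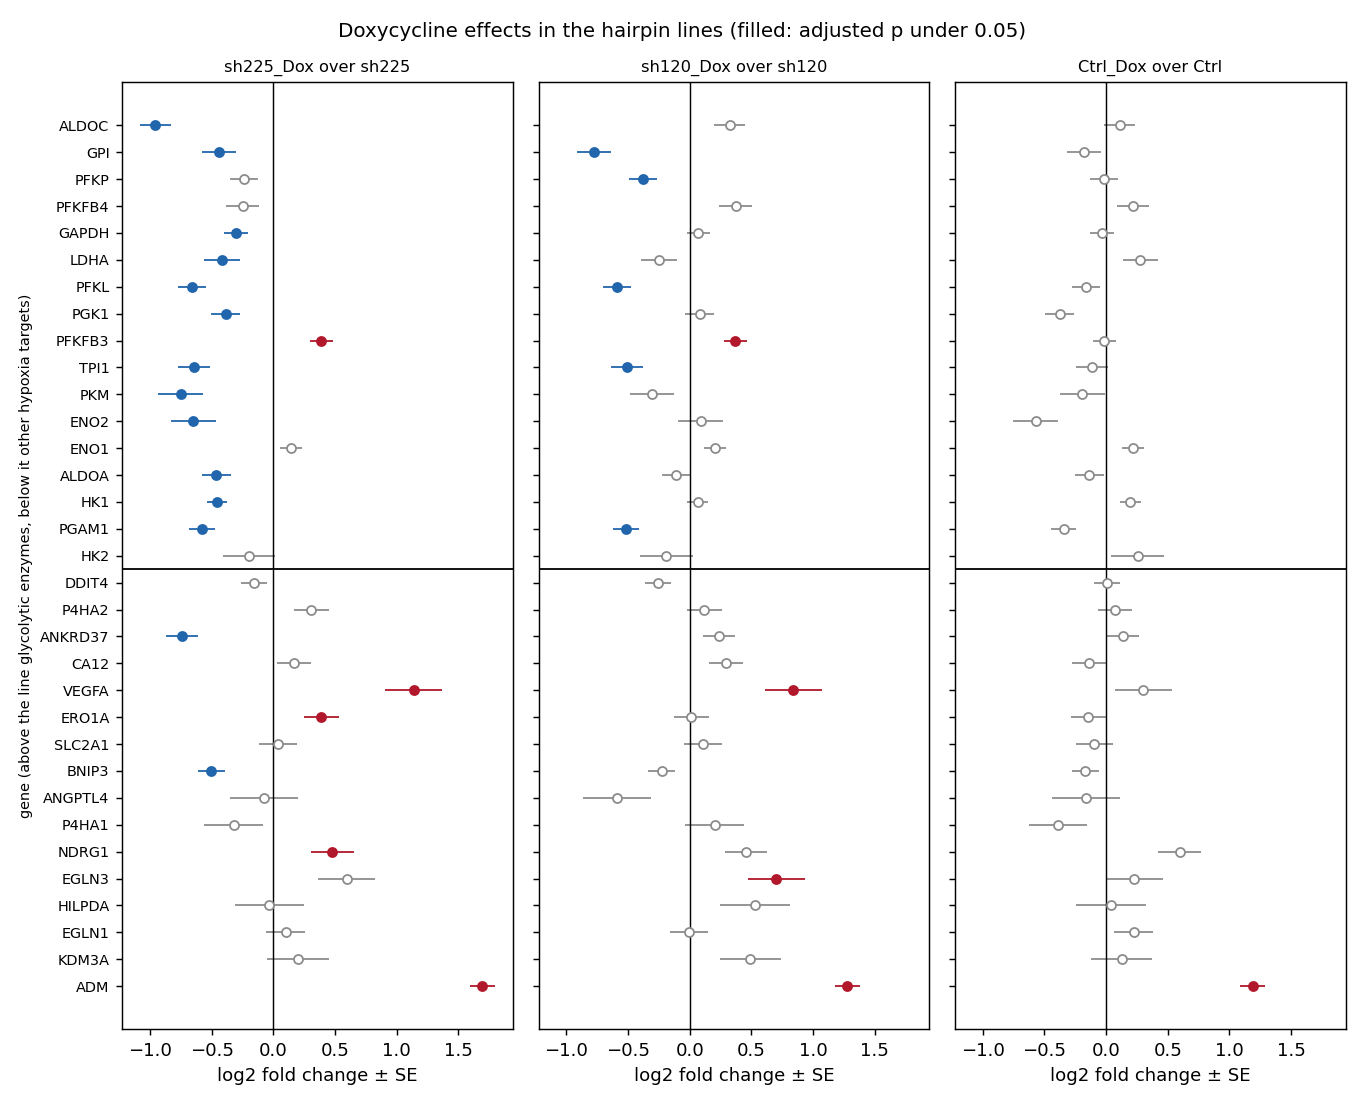
Points are log2 fold changes with Dox of the 33 genes in the sh225, sh120 and Ctrl lines, bars are SE, and filled points passed an adjusted p of 0.05, red for higher and blue for lower. ADM is far to the right in all 3 panels, and most glycolytic enzymes are to the left of 0 in sh225.

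In the sh120 line, with the hairpin against H1.4, 9 of 33 members were called with Dox. Of 17 glycolytic enzymes 5 were lower and 1 higher, with a median of -0.11 (0.02 without sh120_Dox replicate 2), and of 16 other targets 3 were higher and 0 lower, with a median of 0.22. Of all items 16.5% were called, 8.43% lower and 8.07% higher, and groups did not overlap for 29% lower and 30.4% higher. GPI read 9.02 and 9.08 with Dox, against 9.84 and 9.81 without. PFKL read 8.72 and 8.80 with Dox, against 9.33 and 9.37 without. PGAM1, the mutase that moves the phosphate of phosphoglycerate, read 11.13 and 11.02 with Dox, against 11.49 and 11.69 without. In all of these genes the Dox arrays were clearly below the untreated ones. The change was -0.78 ± 0.14 for GPI (adjusted p = 0.00119), -0.59 ± 0.11 for PFKL (adjusted p = 0.00189) and -0.52 ± 0.10 for PGAM1 (adjusted p = 0.00269). TPI1 and PFKP were lower, at -0.51 ± 0.13 and -0.38 ± 0.12, and PFKFB3 was higher by 0.37 ± 0.09.

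ADM read 10.52 and 10.41 in sh120_Dox, against 9.16 and 9.21 in sh120. VEGFA read 8.00 and 7.87 in sh120_Dox, against 7.04 and 7.15 in sh120. Both were higher with Dox on both arrays. The change was 1.28 ± 0.10 for ADM (adjusted p = 1.51e-07) and 0.84 ± 0.23 for VEGFA (adjusted p = 0.0192). EGLN3, a prolyl hydroxylase that is itself a hypoxia target, read 6.21 and 6.51 in sh120_Dox, against 5.52 and 5.80 in sh120, and was detected only on the Dox arrays. It was at least 1.32-fold higher (adjusted p = 0.044). ALDOC, lower with Dox in sh225, differed here by 0.32 ± 0.13 (adjusted p = 0.0845), and GAPDH by 0.07 ± 0.10 (adjusted p = 0.656). With any 1 sh120 or sh120_Dox array dropped fewer members were called, and so were fewer of all items. Without sh120_Dox replicate 1 the called members included ANGPTL4, which was not called with all arrays and was named after its values were seen. VEGFA, PFKP and EGLN3 lost their calls without any 1 of these arrays, PGAM1 without sh120 replicate 2 (adjusted p = 0.0526), TPI1 without sh120 replicate 2 (0.104) or sh120_Dox replicate 1 (0.0891), and PFKFB3 without each array but sh120_Dox replicate 2 (0.0647 to 0.0837).

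In the Ctrl line, where the hairpin has no target, 1 of 33 members was called with Dox, against 2.98% of all items (1.45% higher and 1.53% lower, with no overlap of groups for 23.8% and 21.4%). This was ADM, which read 9.89 and 10.02 in Ctrl_Dox, against 8.76 and 8.78 in Ctrl. The Dox arrays were over 1 log2 unit higher, a change of 1.19 ± 0.10 (adjusted p = 3.37e-07). Glycolytic enzymes had a median of -0.03, with 0 of 17 called by limma and 5 at an unadjusted p under 0.05. That unadjusted threshold was passed by 1554 of all 9654 items. Among members detected in both groups, the largest estimate that was not called was 0.60 ± 0.17 for NDRG1 (adjusted p = 0.0687). ENO2, detected on both Ctrl arrays and on 0 Ctrl_Dox arrays, was not called (adjusted p = 0.104).

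Subtracting the Dox effect of the Ctrl line from that of a knock-down line tests whether the effects differ. For sh225 7 of 33 members were called, 5 lower and 2 higher, against 16.3% of all items (9.61% lower and 6.66% higher). The glycolytic estimates had a median of -0.33 and 16 of 17 lay below 0, while the other targets had a median of 0.08 (0.22 without sh225 replicate 1). The Dox effect on ALDOC was -0.95 in sh225 and 0.11 in Ctrl, a difference of -1.07 ± 0.18 (adjusted p = 0.000258). On ANKRD37 it was -0.74 in sh225 and 0.14 in Ctrl, a difference of -0.88 ± 0.18 (adjusted p = 0.00209). HK1, the hexokinase of most tissues, read 11.58 and 11.59 in sh225_Dox and 12.03 and 12.05 in sh225, beside 12.31 and 12.19 in Ctrl_Dox and 12 and 12.10 in Ctrl. The sh225_Dox arrays were the low pair, and the difference of effects was -0.66 ± 0.12 (adjusted p = 0.000565). The HK1 probe is among those whose rows are interchanged between the deposited tables, and the authors' series matrix gives 0.06 here unless rows are aligned. LDHA read 12.77 and 12.19 in sh225_Dox and 12.92 and 12.87 in sh225, beside 13.25 and 13.16 in Ctrl_Dox and 12.98 and 12.87 in Ctrl. The difference was -0.70 ± 0.20 (adjusted p = 0.0236), with the sh225_Dox arrays far apart. PFKL and PFKFB3 differed by -0.49 ± 0.16 and 0.40 ± 0.13, and ADM rose by 0.51 ± 0.14 more with Dox in sh225 than in Ctrl (adjusted p = 0.0205). The calls of LDHA, PFKL, PFKFB3 and ADM were lost without some single arrays (adjusted p up to 0.133, 0.14, 0.159 and 0.0953).

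For sh120 against Ctrl 0 of 33 members were called by limma, against 0.425% of all items (0.352% higher and 0.0725% lower). At an unadjusted p under 0.05 by limma were 9 members, 8 of them glycolytic, against 1280 of all 9654 items. Among members detected in all 4 groups, the largest estimates were -0.60 ± 0.20 for GPI and 0.59 ± 0.33 for P4HA1 (adjusted p = 0.185 and 0.47). Without Dox, sh225 and Ctrl differed in 1 member, ADM, by 0.46 ± 0.10 (adjusted p = 0.0498), against 0.456% of all items (0.331% higher and 0.124% lower). That call was lost in 14 of 17 alternative analyses. Between sh120 and Ctrl without Dox 0 members were called, against 0.0207% of all items. An unadjusted p under 0.05 by limma was reached by 4 members, against 1084 of all 9654 items. Without Dox, groups did not overlap for 22.9% of items higher and 21.4% lower in sh225, and 22.1% higher and 19.1% lower in sh120. The untreated lines thus differed in fewer called members than WT and K26 did from Ctrl. The ADM level without Dox was 9.18 and 9.28 in sh225, 9.16 and 9.21 in sh120 and 8.76 and 8.78 in Ctrl.

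HK2 and HILPDA were called in no comparison. HK2, the hexokinase that hypoxia induces, was detected on 8 of 16 arrays and ran from 5.43 to 6.49. HILPDA, a protein of lipid droplets, had replicates far apart in some groups, at 9.54 and 8.72 in K26 and 9.17 and 8.07 in sh225_Dox, and an SE of 0.28. EGLN3 was detected on 3 of 16 arrays, ENO2 on 12 and ANGPTL4 on 15, and the other 29 tested members beside HK2 and these were detected on all 16.

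For 5 members more than 1 probe was kept. The 3 GAPDH probes were all lower in K26 than in WT, at -0.92, -0.81 and -0.76, and the ALDOA probes at -0.35 and -0.39. PKM was not called in K26 against WT through its brightest probe (-0.41), but the other probes were lower, at -0.76 and -0.68. The second VEGFA probe was detected only on the sh225_Dox and WT arrays, 4 of 16, so no fold is given for it. The second CA12 probe was not called in K26 against WT (-0.30, adjusted p = 0.111), where the tested probe was called lower, and was lower in K26 than in Ctrl (-1.35). It was also lower in WT than in Ctrl (-1.05) and with Dox in Ctrl (-0.62) and sh120 (-0.43), where the tested probe was not called (-0.36, -0.14 and 0.29). The probe sequences were not used here, so signal shared with related genes or processed copies of GAPDH, PGK1, LDHA, PGAM1, ENO1 and ALDOA was not tested.

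Of 15 genes of the oxygen-sensing machinery 13 were tested, a list separate from the members. In K26 against WT 3 were higher and 0 lower (23.1% called, against 22.9% of all items), among them HIF1A, the alpha subunit of the main factor, by 0.65 ± 0.20 (adjusted p = 0.0246). In WT against Ctrl 2 were higher and 1 lower (23.1%, against 31.8% of all items). EPAS1, which encodes HIF-2 alpha, was higher by 1.26 ± 0.13 (adjusted p = 5.71e-07), and CITED2, which competes with the factors for their coactivators, was lower, at -0.78 ± 0.13 (adjusted p = 0.000243). In K26 against Ctrl 4 were higher and 2 lower (46.2%, against 51.4% of all items), with EPAS1 at 1.48 ± 0.13 (adjusted p = 2.69e-08) and CITED2 at -0.84 ± 0.13 (adjusted p = 4.28e-05). With Dox 2 were higher and 2 lower in sh225 (30.8%, against 35.6% of all items), where EPAS1 was at 0.53 ± 0.13 (adjusted p = 0.00308). In sh120 with Dox 1 was higher and 1 lower (15.4%, against 16.5%). In Ctrl 0 of 13 were called with Dox, and 2 had an unadjusted p under 0.05 by limma, against 1554 of all 9654 items. For the difference of Dox effects 2 were higher and 1 lower in sh225 against Ctrl (23.1%, against 16.3% of all items). For sh120 against Ctrl 0 were called, and 1 had an unadjusted p under 0.05 by limma, against 1280 of all 9654 items.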

How the data were processed

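Whole-genome expression was measured on Illumina bead arrays, 16 arrays in 8 groups of 2. Per the file headers, the deposited table gives for each array a probe intensity that is not normalized and a detection p-value, and per the submitters' processing notes the arrays were read with GenomeStudio 1.6.0. All columns were mapped to samples through the labels (0 unmapped). The intensities as deposited were corrected with limma's neqc (offset 16), which subtracts background by the normal-exponential model, quantile normalizes and takes log2; limma 3.58.1 in R 4.3.3 was used. Of 24530 probes, 11258 with a detection p under 0.01 on at least 2 arrays were kept, and the brightest kept probe stood for each symbol, giving 9654 items. 1 linear model over all 16 arrays with a trended eBayes step gave the 10 comparisons, and the groups come from the sample titles. A second deposited table, the authors' processed series matrix, was used as an alternative after log2. It interchanges some probe rows with the intensity table, among them probes of 3 members (HK1, P4HA2 and VEGFA).

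Members and lists were chosen with earlier results of these data known. Called members were named, with every array value for up to 12 of largest change in K26 against WT and up to 6 in each other comparison. Of the other lists (oxygen-sensing machinery, further hypoxia targets, further glycolysis, pyruvate dehydrogenase, pentose phosphate, citric acid cycle and luminal markers) at most 3 called genes a comparison were named. On data simulated for K26 against WT over 9654 items, 200 of them changed, the fit recovered 38.8% of changes of 0.5, 94% of 1 and 100% of 2 on the log2 scale, with 6 false calls. In the data themselves 2208 items were called in that comparison. The adjustment depends on how many items change, so recovery and false calls there may differ. Alternatives covered background correction, normalization, filter, probe choice, eBayes settings, arrays in the fit, a replicate block and leaving out each array. The number of arrays limits the precision. Nothing in the labels says that the array numbers pair the samples.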

Additional observations from a re-analysis of the deposited data

Results flagged for a closer look

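The Dox effect differed between the sh225 line and the Ctrl line for 7 members, by a test of the difference itself in limma with Benjamini-Hochberg adjustment over all items (n = 2 arrays in each of the 4 groups). The difference, sh225 minus Ctrl, was -1.07 for ALDOC (adjusted p = 0.000258), -0.88 for ANKRD37 (0.00209), -0.66 for HK1 (0.000565), -0.70 for LDHA (0.0236) and -0.49 for PFKL (0.0382). It was 0.51 for ADM (0.0205) and 0.40 for PFKFB3 (0.0445). Of 21 alternative analyses, ALDOC and ANKRD37 lost the call in 0, HK1 in 1, ADM in 4, LDHA in 7, and PFKL and PFKFB3 in 9 each. The lines stand in different numbering sets of the array labels, and the part of that in the differences was not tested.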

How the results depend on the processing

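Of 1754 alternative values of 97 called gene results, 1559 kept the call and direction, 191 lost the call with the same direction and 4 reversed. The reversed values were all HK1 in the authors' series matrix: 0.0418 in K26 against WT, 0.0498 in K26 against Ctrl, 0.0421 with Dox in sh225 and 0.0589 for sh225 minus Ctrl. None of the 4 reversed once the interchanged probe rows were aligned, an alternative chosen after seeing the data. Leaving out single arrays gave 13 to 16 called members in K26 against WT, 12 to 16 in WT against Ctrl, 19 to 22 in K26 against Ctrl, 13 to 18 with Dox in sh225, 3 to 6 in sh120, 1 in Ctrl, 3 to 9 for sh225 minus Ctrl, and 0 for sh120 minus Ctrl and for both untreated comparisons. With Dox in Ctrl 2 members were called when all detected probes of a symbol were averaged, beside 293 of all items (288 in the main run). For sh225 minus Ctrl 4 members were called when only the arrays compared were fitted, beside 1284 of all items (1571 in the main run). Between untreated sh225 and Ctrl 3 members were called with median scaling, beside 176 of all items (44 in the main run). In that comparison 0 members were called without background correction, with an offset of 50, cyclic loess, the series matrix (aligned or not), no filter, detection on all arrays, no trend, robust eBayes or only the arrays compared. Under these settings 5 (detection on all arrays) to 81 (the series matrix) of all items were called. The cause was not tested. With the replicate number as a block, 19, 18, 24, 19 and 9 members were called in K26 against WT, WT against Ctrl, K26 against Ctrl, sh225 and sh120. The calls over all items were then 2179, 3089, 4968, 3423 and 1577. The replicate numbers of 28 pairs of groups correlated at -0.362 to 0.319, over 0.1 in 9 pairs. Whether arrays of the same replicate number were handled together cannot be told from these values or the labels. Members near background (EGLN3, HK2, ENO2 and ANGPTL4) are limited by their signal. NDRG1, EGLN1 and KDM3A were detected on all arrays, but in Ctrl they read 5.94 to 6.26, close to the lowest detected signals there (5.92 and 5.89). Across the alternatives their changes in WT against Ctrl ran from 1.09 to 2.23, 0.34 to 0.95 and 0.28 to 0.85. In K26 against Ctrl they ran from 1.11 to 2.27, 0.47 to 1.15 and 0.48 to 1.49.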

Other observations

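Of all items tested, 22.9% were called in K26 against WT, 31.8% in WT against Ctrl and 51.4% in K26 against Ctrl, and with Dox 35.6% in sh225, 16.5% in sh120 and 2.98% in Ctrl.

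Among 19 tested further hypoxia targets of 30 listed, 3 were higher and 3 lower in K26 against WT, 6 and 5 in WT against Ctrl, and 7 and 4 in K26 against Ctrl (31.6%, 57.9% and 57.9% called). Of all items 22.9%, 31.8% and 51.4% were called in these comparisons. PPFIA4 was lower in K26 than in WT (-1.36), in WT than in Ctrl (-1.64) and in K26 than in Ctrl (-3.01), and CXCR4 was lower in WT than in Ctrl (-1.64). With Dox 2 were higher and 3 lower in sh225, 1 and 2 in sh120, and 1 and 2 in Ctrl (26.3%, 15.8% and 15.8%, against 35.6%, 16.5% and 2.98% of all items). STC2, a secreted glycoprotein, was higher with Dox in all 3 lines, by 0.84 in sh225, 0.89 in sh120 and 0.54 in Ctrl. HMOX1, which degrades heme, was lower with Dox in Ctrl (-1.06) and sh120 (-0.71), and its Dox effect in sh225 minus that in Ctrl was 1.64.

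The further glycolysis genes, 10 tested of 18, did not include a lower one: 2 were higher in K26 against WT, 1 in WT against Ctrl, 3 in K26 against Ctrl (20%, 10% and 30% called) and 1 with Dox in sh120. Over all items the shares called were 22.9% for K26 against WT, 31.8% for WT against Ctrl and 51.4% for K26 against Ctrl. With Dox they were 35.6% in sh225, 16.5% in sh120 and 2.98% in Ctrl. PFKFB2 was higher in K26 than in WT (0.52) and than in Ctrl (0.82). Of 10 tested pyruvate dehydrogenase genes 3 were higher and 1 lower in K26 against WT, 3 and 2 in WT against Ctrl, and 3 and 3 in K26 against Ctrl (40%, 50% and 60%), with PDK4, a kinase that inhibits the complex, higher by 1.56 in the last. Of 6 tested pentose phosphate genes 0 were higher and 2 lower in K26 against WT, 1 and 2 in WT against Ctrl, 2 and 4 in K26 against Ctrl (33.3%, 50% and 100%), and with Dox 1 and 3 in sh225, 0 and 4 in sh120 and 0 and 2 in Ctrl (66.7%, 66.7% and 33.3%). TKT, transketolase, was lower with Dox in sh225 (-0.41), sh120 (-0.56) and Ctrl (-0.42). Of 13 tested citric acid cycle genes 2 were higher and 1 lower in K26 against WT, 3 and 0 in WT against Ctrl and 4 and 0 in K26 against Ctrl (23.1%, 23.1% and 30.8%). With Dox 0 were higher and 1 lower in sh225, 1 and 0 in sh120 and 1 and 0 in Ctrl (7.69% in each line).

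Of 10 luminal markers 0 were higher and 2 lower in K26 against WT, 1 and 4 in WT against Ctrl, and 1 and 6 in K26 against Ctrl (20%, 50% and 70% called). Of all items 22.9%, 31.8% and 51.4% were called in these comparisons. In K26 against Ctrl PGR, the progesterone receptor, was lower, at -1.75, and ESR1, the estrogen receptor, at -1.02. With Dox 1 was higher and 2 lower in sh225, 2 and 0 in sh120 and 0 and 0 in Ctrl (30%, 20% and 0%, against 35.6%, 16.5% and 2.98% of all items). The part of the luminal markers in the results on glycolysis was not tested.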
